A study of Mus musculus with 6 samples.

Results

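The cell cycle and DNA replication genes described here are 49 genes, 27 of G1/S and replication and 22 of G2/M and mitosis, chosen by symbol, and all were found among the 23282 entries of each of the 6 count files. They were measured in regulatory T cells (Treg), CD4 T cells that hold immune responses in check, which were isolated by cell sorting from the spleen of C57BL/6 mice and not stimulated. The 3 control libraries are labelled wild type and the other 3 IPMK cKO, a conditional knockout of Ipmk, which encodes the inositol polyphosphate multikinase. The sources used here do not give the driver of the deletion, the deleted part of the gene, the age of the mice or whether animals were pooled. Each library is called a biological replicate, but nothing says that replicates came from separate mice, so a p-value here measures the spread between libraries only, part of which may be technical.

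A cell that enters the cycle first makes D-type and then E-type cyclins, whose kinases release the E2F transcription factors from the retinoblastoma family of repressors. E2F factors switch on the genes for licensing origins, for the replication fork and for deoxynucleotides. The genes of mitosis are switched on later, through a complex of B-MYB, FOXM1 and the MuvB core that binds the element called CHR, often together with the factor NF-Y at CCAAT boxes. Most Treg of an unchallenged spleen are resting, and the Treg that divide there belong largely to the activated fraction.

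The promoters of both phases carry these elements, and 6 are printed because they show the contrast between the phases. RefSeq promoter windows on GRCm38.p6 (250 bases before to 50 after a start site) were present for 42 of the 49 members, 24 of G1/S and 18 of G2/M. E2F letters (TTTCCCGC, TTTGGCGC, TTTCGCGC or TTTGCCGC on either strand, overlaps allowed) were in the windows of 11 of the 24 G1/S members (45.8%) and of 1 of 18 G2/M members (5.56%), that of Cdk1. They were in the windows of 2.6% of all 27025 genes with a window and of 4.93% of the 7999 of these that were tested for expression. The CHR letters TTTGAA, on either strand, were in 13 of 18 G2/M windows (72.2%) and 3 of 24 G1/S members (12.5%), against 20.2% of all genes and 13.9% of tested genes. CCAAT, on either strand, was in 17 of 18 G2/M members (94.4%) and 15 of 24 G1/S members (62.5%), against 41.1% of all genes and 42.9% of tested genes. The stretches below end upstream of the RefSeq start site and run 5′ to 3′ on the strand of the gene, with each match to any of the 3 elements in capitals. The stretches of Mcm5 and Mcm6, subunits of the replicative helicase, lie at chr8:75109336-75109508 on the plus strand and chr1:128359706-128359835 on the minus strand. In both, neighbouring E2F matches overlap and run together. That of the S phase kinase Cdk2 lies at chr10:128705072-128705211 on the minus strand. That of the proliferation antigen Mki67 lies at chr7:135716452-135716587 on the minus strand, the mitotic cyclin Ccnb2 at chr9:70421555-70421741 on the minus strand and the mitotic kinase Cdk1 at chr10:69352913-69353140 on the minus strand. A match describes the letters and is no evidence of binding.
Mcm5: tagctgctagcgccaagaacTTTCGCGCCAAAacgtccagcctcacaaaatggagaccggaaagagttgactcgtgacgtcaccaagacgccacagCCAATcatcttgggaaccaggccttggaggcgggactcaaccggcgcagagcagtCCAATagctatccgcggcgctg
Mcm6: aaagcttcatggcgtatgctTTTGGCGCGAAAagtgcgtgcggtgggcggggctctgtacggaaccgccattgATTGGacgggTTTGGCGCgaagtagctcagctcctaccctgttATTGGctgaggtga
Cdk2: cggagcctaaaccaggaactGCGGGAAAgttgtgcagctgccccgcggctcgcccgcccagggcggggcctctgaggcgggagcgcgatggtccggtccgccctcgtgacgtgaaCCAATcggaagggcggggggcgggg
Mki67: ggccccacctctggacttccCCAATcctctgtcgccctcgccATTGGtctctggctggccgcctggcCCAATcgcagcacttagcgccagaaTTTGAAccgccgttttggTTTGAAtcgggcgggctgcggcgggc
Ccnb2: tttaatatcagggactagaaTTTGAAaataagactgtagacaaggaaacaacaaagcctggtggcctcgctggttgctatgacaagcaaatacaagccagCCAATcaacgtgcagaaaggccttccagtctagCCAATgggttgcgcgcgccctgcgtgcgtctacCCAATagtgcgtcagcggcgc
Cdk1: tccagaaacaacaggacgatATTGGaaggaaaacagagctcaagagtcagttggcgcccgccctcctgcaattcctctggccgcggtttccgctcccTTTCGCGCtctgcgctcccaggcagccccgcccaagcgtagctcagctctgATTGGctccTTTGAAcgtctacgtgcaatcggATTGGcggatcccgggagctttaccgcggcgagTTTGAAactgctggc

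Total counts were 7464546 to 8246993 in wild type and 8363324 to 8980395 in IPMK cKO. The targeted gene Ipmk had 77 to 129 counts in wild type and 0 to 21 in IPMK cKO libraries; as its deleted part is unknown here, this count describes the transcript and does not check the labels. All 9 Treg and T cell markers had counts in every library, but Foxp3, which defines Treg, was at 10.3, 80.6 and 29.0 CPM (wild type) against 85.1, 72.0 and 82.3 CPM (IPMK cKO). It was lowest in wild type replicate 1, and its part in the results was not tested. IPMK cKO replicate 1 and wild type replicate 1 had the lowest mean correlations with the other libraries (Pearson's r of log2 CPM across genes). These were 0.694 and 0.732, against 0.742 to 0.804 for the rest. They also had the fewest genes with a count (10311 and 10354, against 10529 to 12526). In both measures wild type replicate 1 was close to IPMK cKO replicate 3 (0.742 and 10529). Results are also given without the replicates 1. Levels are given in CPM, counts scaled to a common library size with TMM factors, and a positive log2 fold change means a higher level in IPMK cKO. Estimates in parentheses are log2 fold changes of the edgeR fit with their SE. Values of a group are listed for replicates 1, 2 and 3 in that order.

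Neither phase held a gene that passed the test. By edgeR's quasi-likelihood test 0 of the 46 members tested had an adjusted p under 0.05, where 0% of all 10475 genes tested were called in either direction (smallest edgeR adjusted p 0.9999). DESeq2 called 0 of the 49 members, where it called 0.00707% of 14139 genes higher and 0.0212% lower, and limma-voom called 0 of 46. At an unadjusted p under 0.05 edgeR gave 2 lower members, Cdc45 and E2f1, and 0 higher, against 1.19% of all genes lower and 1.37% higher. DESeq2 gave 1 higher and 2 lower G1/S members and 3 lower G2/M members at that unadjusted threshold, against 2.07% of its 14139 genes higher and 2.16% lower. All 27 G1/S members and 19 of 22 G2/M members passed the filter on low counts, while Cdk1, Aurka and Bub1b did not. A gene can pass that filter through 1 group alone, so counts over the members that passed are descriptions. Estimates were below 0 for 19 of the G1/S members and above 0 for 8, and their median was −0.34 on the log2 scale. Among the tested G2/M members these numbers were 13 and 6, with a median of −0.32. Over all genes tested the median was 0.03 with 48.2% of estimates below 0 and 51.8% above. The biological coefficient of variation was 0.809.

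The place of the libraries is given for each of the 2 phases apart, and a difference between the phases was not tested. For 5 of 27 G1/S members (Ccne2, E2f1, Cdc45, Pola1 and Dut) every IPMK cKO library was below every wild type library, and for 1, Ccnd2, every IPMK cKO library was above. Of the 19 tested G2/M members 1, Hmgb2, was lower in this way and 0 were higher. Over all genes tested 5.66% were lower without overlap and 4.74% higher. The mean log2 level of the tested G1/S members relative to wild type came to −0.26, −0.03 and 0.29 for the wild type libraries. The IPMK cKO libraries stood at −0.86, −0.59 and −0.53, all below wild type. This mean includes Cdc45 and E2f1, with 0 and 2 counts in all in IPMK cKO, which passed the filter through wild type alone. Without these 2 genes the mean of wild type replicate 1 fell below those of IPMK cKO replicates 2 and 3, so the groups overlapped. The separation in the G1/S mean thus rests on genes that wild type alone brought into it. For the tested G2/M members wild type stood at −1.27, 0.42 and 0.85 and IPMK cKO at −1.14, −0.92 and 0.49, a wide overlap. In bulk RNA fewer cycling cells and less of these transcripts per cell cannot be told apart.

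The G1/S members of higher and of lower level are given apart, since errors were larger at low level. Among the 17 G1/S members with a mean of at least 20 CPM over all libraries the median estimate was −0.34, with 11 below 0 and 6 above. Averaged on the log2 scale as above, here with 0.5 CPM added, they stood at 0.09, −0.06 and −0.04 (wild type) against −0.81, −0.41 and −0.07 (IPMK cKO). IPMK cKO replicate 3 thus stood next to wild type replicates 2 and 3. For the 10 members under 20 CPM it was −0.66, −0.06 and 0.71 against −0.70, −0.71 and −1.07, and wild type replicate 1 lay next to IPMK cKO. These 10 include Cdc45 and E2f1, which passed the filter through wild type alone. The distance between the groups rests largely on them, and without them it was no larger than among the 17. Standard errors of the fold change had a median of 0.51 in the first group and of 2.02 in the second.

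The D-type cyclins, which carry growth signals to the cell cycle, had estimates above 0. Ccnd2 was at 914, 1081 and 1061 CPM (wild type) against 1665, 1228 and 1270.4 CPM (IPMK cKO; log2 estimate +0.45, SE 0.25, edgeR unadjusted p = 0.108). It was highest in IPMK cKO replicate 1, and no IPMK cKO library overlapped wild type. Ccnd3 was at 259.9, 141 and 145 CPM (wild type) against 303, 167 and 235 CPM (IPMK cKO), with overlap (+0.37, SE 0.35). Both replicates 1 were the highest of their group. Their partner kinase Cdk4 was likewise highest in the replicates 1, at 54.1, 26.8 and 22.3 CPM (wild type) against 44.0, 14.1 and 37.6 CPM (IPMK cKO). Cdk6, the other partner, had 0, 8 and 38 counts (wild type) against 100, 15 and 0 counts (IPMK cKO), so that its estimate of +1.65 (SE 2.34) rested on IPMK cKO replicate 1. Without that library it was −0.78.

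The next step in G1, the E-type cyclins and their kinase, gave lower means in IPMK cKO. Ccne2 was at 43.9, 54.3 and 32.3 CPM (wild type) against 3.66, 21.4 and 30.6 CPM (IPMK cKO; −1.22, SE 0.70). The highest IPMK cKO library was close to the lowest wild type library. Ccne1, its paralog, was at 1.68, 4.24 and 8.94 CPM (wild type) against 2.81, 4.44 and 3.75 CPM (IPMK cKO), with full overlap. Cdk2, whose promoter is printed above, was at 38.3, 34.2 and 29.0 CPM (wild type) against 1.97, 31.5 and 21.1 CPM (IPMK cKO; −0.89, SE 0.81). Its low mean rested on IPMK cKO replicate 1 with 14 counts, and without that library the estimate was −0.37.

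The activating E2F factors E2f1 and E2f2 differed in how the libraries lay. E2f1 (mm10 chromosome 2, 154559407 to 154569892) had 69, 14 and 62 counts (wild type) against 0, 0 and 2 counts (IPMK cKO). Its level over the pooled counts was 70.7-fold higher in wild type, with a 95% counting interval of 19.2 to 589 (exact, conditional on the sum), which does not cover the spread between libraries. The unadjusted p of edgeR was 0.0304 and the exact permutation p was 0.1, the smallest that 3 against 3 libraries allow. With both libraries numbered 1 left out, the unadjusted p of edgeR was 0.104, and with only that of wild type or of IPMK cKO left out it was 0.0698 or 0.0669. E2f2 was at 68.6, 90.6 and 119.8 CPM (wild type) against 151, 43.2 and 122 CPM (IPMK cKO; +0.18, SE 0.45). It spanned the wild type range in IPMK cKO, where replicate 2 was the lowest of all 6 libraries and replicate 1 the highest. Leaving out IPMK cKO replicate 1 gave −0.17, and −0.34 was the value with both replicates 1 left out.

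**Figure D1:**
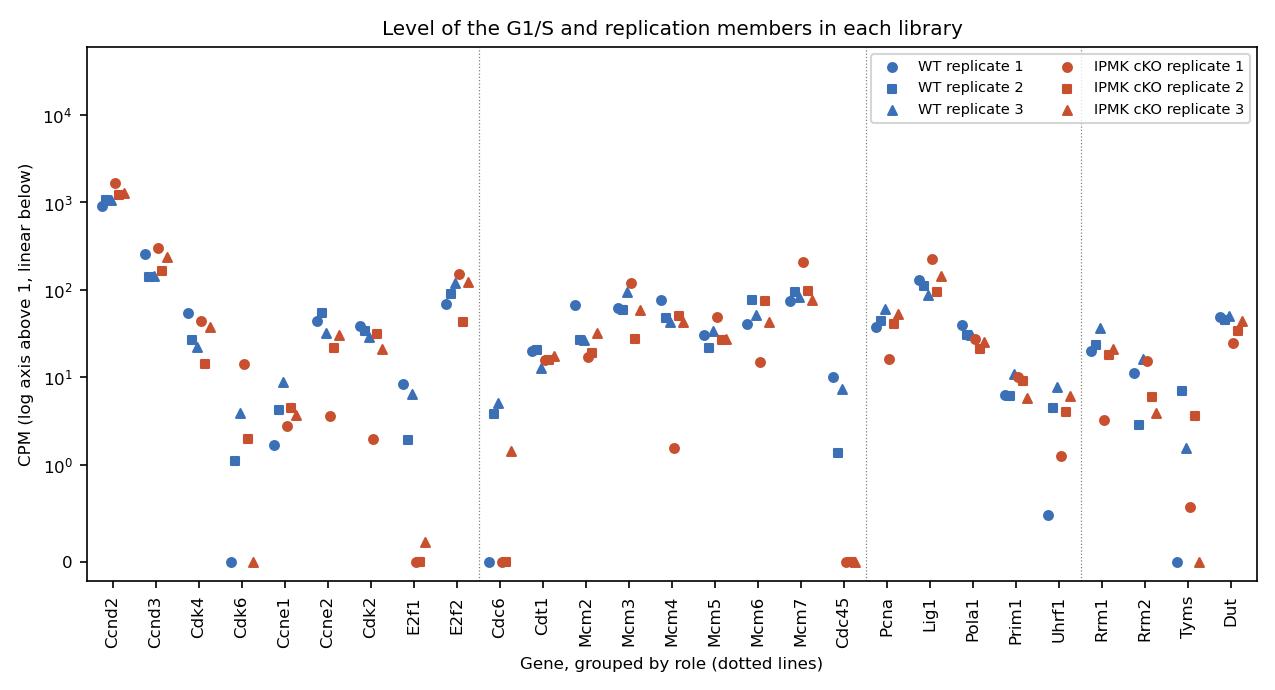
Level of each of the 27 G1/S and replication members in each library, in CPM (log axis above 1, linear below); blue is wild type, orange IPMK cKO, and the marker shape gives the replicate. E2f1 and Cdc45 stand at or near 0 in all 3 IPMK cKO libraries, while Ccnd2 is above wild type in all 3, and IPMK cKO replicate 1 (orange circles) is far below the other libraries in Mcm4 and Cdk2.

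Cdc45, which joins the MCM ring to make the active helicase, had the smallest p of all members. The gene lies on chromosome 16 at 18780447 to 18811987 (mm10). It had 84, 10 and 70 counts (wild type) against 0 in every library of IPMK cKO. With the IPMK cKO group set to a floor of 3 counts in all, it was at least 53.3-fold lower there, for counting error only (edgeR unadjusted p = 0.0116, adjusted p = 0.9999, exact permutation p = 0.1). Wild type replicate 2, with 10 counts, was the library nearest to IPMK cKO. The bound lies below the median of the members, so the G1/S median of −0.34 does not depend on its fitted value.

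Origins are licensed when Cdc6 and Cdt1 load the MCM2 to MCM7 ring onto DNA, and these genes had estimates on both sides of 0. Cdc6 had 0, 28 and 49 counts (wild type) against 0, 0 and 14 counts (IPMK cKO). Cdt1 was at 20.2, 20.4 and 12.9 CPM (wild type) against 15.9, 15.7 and 17.4 CPM (IPMK cKO; −0.13, SE 0.66). The IPMK cKO libraries all lay inside the wild type range. Of the 6 ring subunits 4 had estimates below 0 and 2 above, and all 6 overlapped between the groups.

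Mcm4 was at 76.0, 48.0 and 42.9 CPM (wild type) against 1.55, 50.4 and 43.3 CPM (IPMK cKO; −0.81, SE 0.85). Replicates 2 and 3 were close between the groups, and the estimate was +0.05 without both libraries numbered 1. Mcm6 had a like pattern, at 40.4, 76.8 and 51.4 CPM (wild type) against 14.9, 75.1 and 42.7 CPM (IPMK cKO; −0.34, SE 0.56). Mcm7 had the opposite pattern, at 73.8, 95.7 and 84.0 CPM (wild type) against 207, 96.3 and 76.0 CPM (IPMK cKO; +0.58, SE 0.40). Leaving out IPMK cKO replicate 1 gave +0.02, and −0.06 was the value with both replicates 1 left out. Mcm3 was also highest in IPMK cKO replicate 1, at 62.6, 59.7 and 95.1 CPM (wild type) against 122, 27.3 and 59.5 CPM (IPMK cKO; −0.06, SE 0.50). The same library was thus the lowest of all in Mcm4 and Mcm6 and the highest of all in Mcm3 and Mcm7, genes whose products form 1 ring.

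The remaining ring subunits, Mcm2 and Mcm5, had estimates of −0.82 (SE 0.57) and +0.28 (SE 0.51). Mcm2 was at 66.9, 27.1 and 26.6 CPM (wild type) against 16.9, 18.9 and 32.4 CPM (IPMK cKO). Wild type replicate 1 was far above the rest, and without it the estimate was −0.24. Mcm5 was at 30.3, 21.6 and 33.6 CPM (wild type) against 49.4, 26.7 and 27.8 CPM (IPMK cKO). IPMK cKO replicate 1 was again its highest library.

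At the fork, the catalytic subunit of the polymerase that starts each new strand, Pola1, was lower in every IPMK cKO library. It was at 39.8, 30.6 and 30.3 CPM (wild type) against 27.4, 21.2 and 25.2 CPM (IPMK cKO; −0.45, SE 0.49). The primase subunit Prim1, which works in the same complex, was at 6.26, 6.15 and 10.8 CPM against 10.1, 9.01 and 5.78 CPM (+0.10, SE 1.11), with overlap. The sliding clamp Pcna was at 37.9, 44.3 and 60.3 CPM (wild type) against 16.3, 40.5 and 53.6 CPM (IPMK cKO; −0.37, SE 0.51). IPMK cKO replicate 1 was low in Pcna and high in Lig1, the ligase that seals lagging-strand fragments. Lig1 was at 131, 109.7 and 87.1 CPM (wild type) against 224, 93.5 and 144 CPM (IPMK cKO; +0.49, SE 0.37). Uhrf1, which helps to copy DNA methylation behind the fork, had 4, 33 and 75 counts (wild type) against 9, 31 and 60 counts (IPMK cKO). Both replicates 1 were the lowest of their group in Uhrf1.

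All 4 genes of nucleotide supply had estimates below 0, from −1.01 to −0.26, and 0 passed the test. Dut, the dUTPase that keeps uracil out of DNA, was at 49.6, 45.2 and 49.9 CPM (wild type) against 24.5, 33.6 and 44.7 CPM (IPMK cKO; −0.49, SE 0.43). Its wild type libraries were close together and all above IPMK cKO. The large subunit of ribonucleotide reductase, Rrm1, was at 19.9, 23.2 and 36.7 CPM (wild type) against 3.24, 18.2 and 20.9 CPM (IPMK cKO; −0.91, SE 0.77). The small subunit Rrm2 was at 11.2, 2.87 and 16.1 CPM against 15.2, 6.01 and 3.96 CPM (−0.26, SE 1.13), with full overlap. Tyms, which makes thymidylate, had 0, 51 and 15 counts (wild type) against 4, 28 and 0 counts (IPMK cKO). It was too sparse to place the groups.

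The G2/M members turned on a few sparse genes and a few abundant ones. Mki67, a nuclear antigen of cycling cells, had the smallest p of the phase. The gene lies on chromosome 7 at 135689784 to 135716361 (mm10). It was at 23.7, 51.4 and 61.0 CPM (wild type) against 20.7, 24.8 and 15.3 CPM (IPMK cKO; −1.16, SE 0.53, edgeR unadjusted p = 0.0514, adjusted p = 0.9999). Wild type replicate 1 lay below IPMK cKO replicate 2, so the groups overlapped. Without both libraries numbered 1 the estimate was −1.49 (edgeR unadjusted p = 0.0105). It was −1.47 without the wild type library alone and −1.18 without the IPMK cKO library alone.

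Other genes of chromosome structure had smaller differences. Top2a, the topoisomerase that untangles sister chromatids, was at 59.6, 69.7 and 100.3 CPM (wild type) against 66.8, 29.7 and 70.4 CPM (IPMK cKO; −0.46, SE 0.42). Hmgb2, a DNA-bending protein, was at 75.8, 75.8 and 98.3 CPM (wild type) against 74.9, 55.1 and 69.7 CPM (IPMK cKO; −0.32, SE 0.33). The highest IPMK cKO library was just under the lowest wild type library. The condensin subunits Smc2 and Smc4, which form a pair, had estimates of −0.10 (SE 0.48) and +0.34 (SE 0.28). Smc2 was at 38.6, 96.9 and 47.5 CPM (wild type) against 39.7, 88.2 and 42.8 CPM (IPMK cKO), and Smc4 was at 1737, 2182 and 1766 CPM against 2096, 3161 and 1959.5 CPM. In both genes replicate 2 was the highest of its group.

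Among the mitotic cyclins, the G2/M partners of Cdk1, Ccnb2 had the next smallest p of the phase. It had 0, 87 and 145 counts (wild type) against 2, 4 and 24 counts (IPMK cKO; −3.03, SE 2.08, edgeR unadjusted p = 0.173). Wild type replicate 1 had no count although it had more counts outside Rn45s, the ribosomal RNA precursor, than wild type replicate 2. Without both libraries numbered 1 the estimate was −3.17 (edgeR unadjusted p = 0.0439). Ccnb1 had 0, 38 and 28 counts (wild type) against 8, 0 and 38 counts (IPMK cKO). Ccna2, the cyclin of S and G2 phase, was at 29.0, 13.7 and 8.94 CPM (wild type) against 30.7, 17.6 and 9.74 CPM (IPMK cKO; +0.17, SE 0.75). Replicate 1 was the highest of each group and the ranges nearly coincided.

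The mitotic kinases were mostly too sparse to compare. Cdk1 had 170, 6 and 39 counts (wild type) against 7, 0 and 0 counts (IPMK cKO), and was not tested. Most of its wild type counts came from replicate 1, the library with no count of Ccnb1 or Ccnb2. Plk1, which drives entry into mitosis, was at 21.3, 11.9 and 29.9 CPM (wild type) against 27.9, 7.84 and 14.0 CPM (IPMK cKO; −0.34, SE 0.73). Aurka, the kinase of the spindle poles, had 0, 2 and 3 counts (wild type) against 1, 3 and 87 counts (IPMK cKO), and was not tested. Aurkb, the kinase of the inner centromere, had 0, 24 and 57 counts against 20, 0 and 79. IPMK cKO replicate 3 was the highest library for both Aurora kinases.

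IPMK cKO replicate 3 was also the highest in 2 genes of the checkpoint and the anaphase-promoting complex. The checkpoint kinase Bub1 had 0, 12 and 29 counts (wild type) against 0, 9 and 95 counts (IPMK cKO). Ube2c, the ubiquitin carrier of the complex, had 2, 44 and 99 counts (wild type) against 3, 42 and 270 counts (IPMK cKO; +1.01, SE 1.58). Cdc20, its activator, had 0, 31 and 99 counts against 6, 3 and 62, so that wild type replicate 3 was highest. Bub1b, the BUBR1 checkpoint protein, had 0, 40 and 49 counts (wild type) against 0 in every library of IPMK cKO. With the same floor it was at least 28.9-fold lower. Since wild type replicate 1 also had 0, it was not tested and its groups touched at 0.

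**Figure D2:**
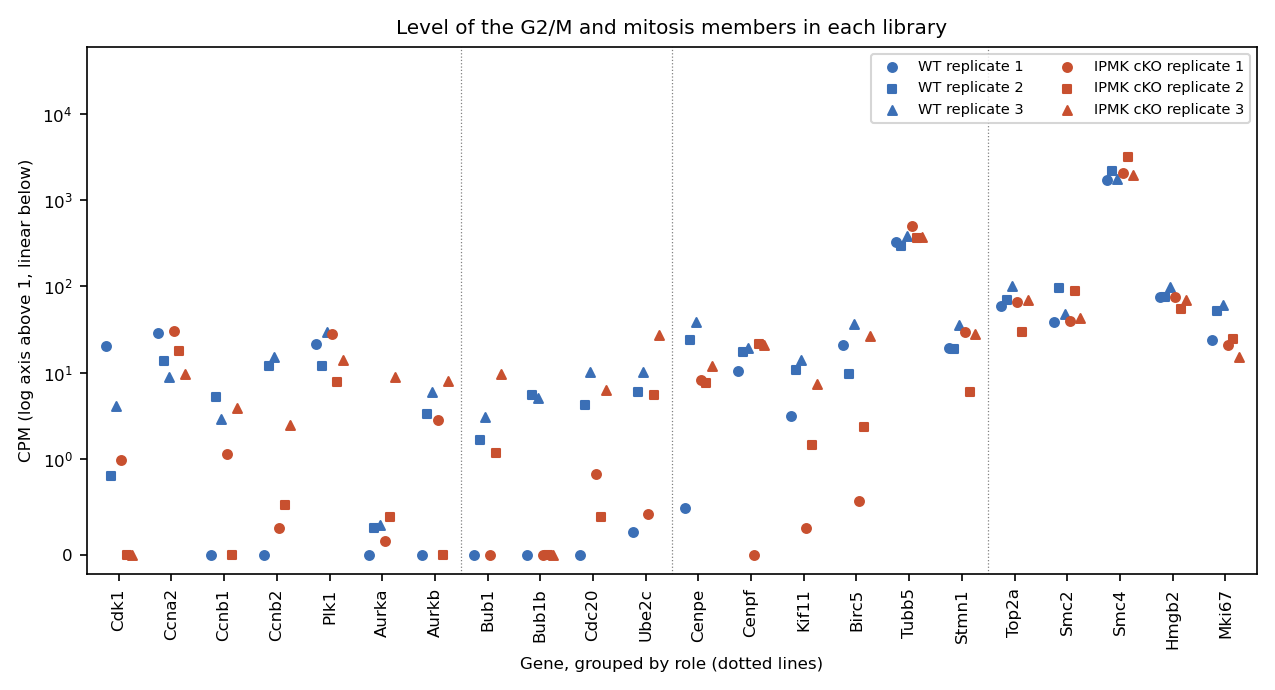
Level of each of the 22 G2/M and mitosis members in each library, in CPM (log axis above 1, linear below); blue is wild type, orange IPMK cKO, and the marker shape gives the replicate. Wild type replicate 1 (blue circles) is at 0 in 7 members, and Bub1b is at 0 in all 3 IPMK cKO libraries.

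Of the 6 genes of the spindle and kinetochore 5 had estimates below 0, and all 6 overlapped between the groups. The kinetochore motor Cenpe had 4, 173 and 374 counts (wild type) against 58, 58 and 117 counts (IPMK cKO; −1.19, SE 1.13). Without wild type replicate 1 its groups no longer overlapped (−1.76, edgeR unadjusted p = 0.0439). The spindle motor Kif11 had 26, 78 and 134 counts (wild type) against 2, 11 and 72 counts (IPMK cKO; −1.61, SE 1.56). The survivin gene Birc5 was at 20.7, 9.57 and 36.6 CPM (wild type) against 0.563, 2.35 and 26.5 CPM (IPMK cKO; −1.18, SE 1.18). In both genes IPMK cKO replicates 1 and 2 were below every wild type library and replicate 3 was not.

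Cenpf, another kinetochore protein, had 86, 126 and 188 counts (wild type) against 0, 165 and 206 counts (IPMK cKO). Without IPMK cKO replicate 1 its estimate went from −0.15 to +0.43. Tubb5, a beta-tubulin, was at 331, 295 and 385 CPM (wild type) against 501, 364 and 371 CPM (IPMK cKO; +0.29, SE 0.27). Stmn1, a microtubule destabilizer, was at 19.3, 19.0 and 36.1 CPM (wild type) against 29.3, 5.88 and 27.7 CPM (IPMK cKO; −0.24, SE 0.71), and its sign turned when wild type replicate 3 or IPMK cKO replicate 2 was left out. Reads of Tubb5, Stmn1, Hmgb2 and other members with processed pseudogenes may be shared between copies, which makes their values uncertain.

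**Figure D3:**
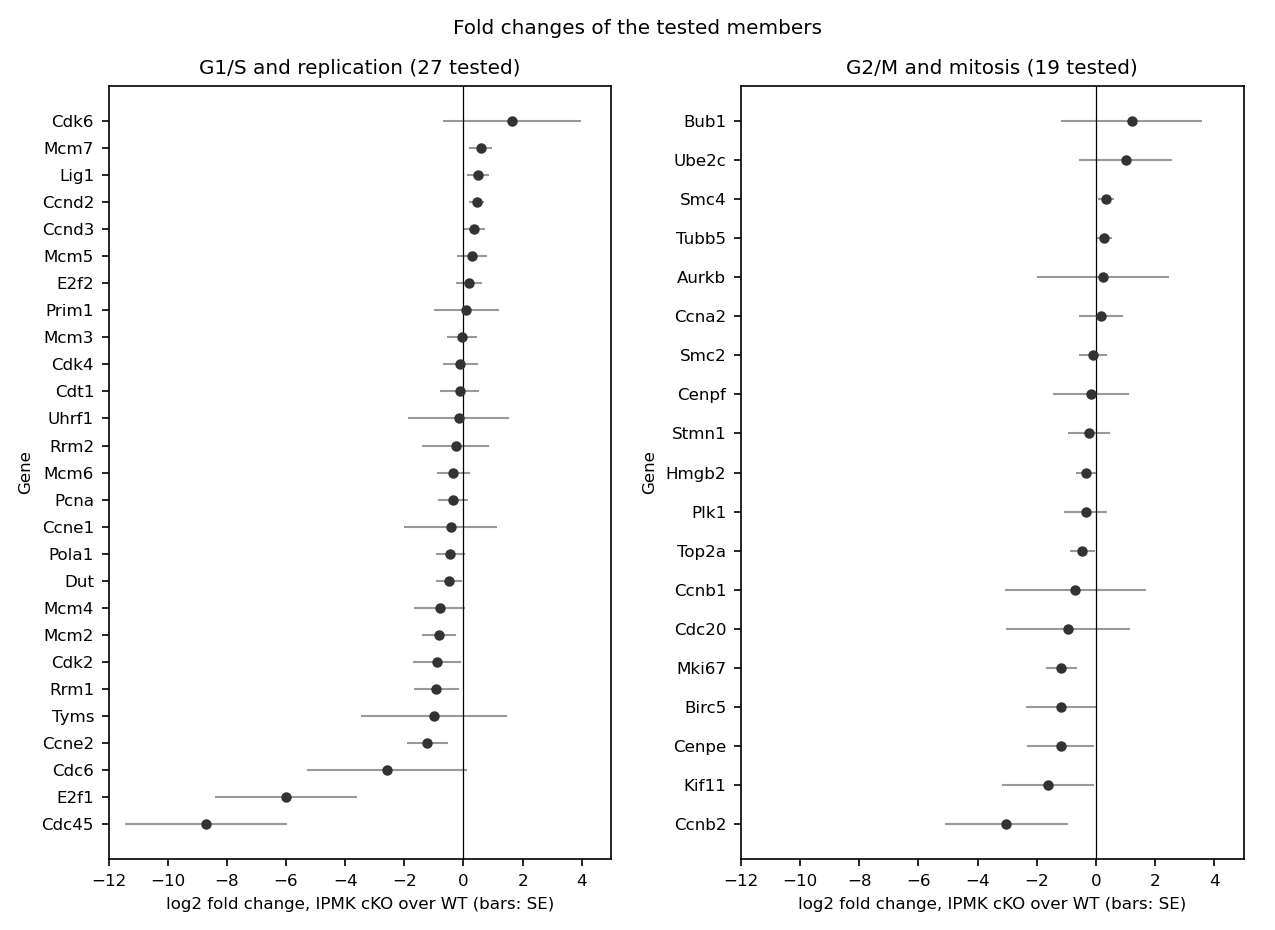
Log2 fold change of the 27 tested G1/S members and the 19 tested G2/M members (IPMK cKO over wild type), 1 gene per row; bars are the SE of the edgeR fit. Most estimates lie to the left of 0 in both panels; the fitted values of Cdc45 and E2f1, with 0 and 2 counts in IPMK cKO, depend on the prior count of the fit and bound nothing.

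Libraries differed in which members they detected. Wild type replicates 2 and 3 had a count for all 49 members. Wild type replicate 1 had none for 7 of the 22 G2/M members (Ccnb1, Ccnb2, Aurka, Aurkb, Bub1, Bub1b and Cdc20), and IPMK cKO replicates 1 to 3 had none for 3, 4 and 2. Among the 27 G1/S members wild type replicate 1 and each IPMK cKO library had 3 without a count. Wild type replicate 3 was the highest of all 6 libraries in 10 of the 19 tested G2/M members. Wild type replicate 1 was the lowest, or tied at 0, in 9. IPMK cKO replicate 1 was the lowest in 10 and the highest in 8 of the 27 G1/S members. Ties at 0 went to the library listed first, wild type before IPMK cKO. The 9 thus include ties in Ccnb1, Aurkb and Bub1, and the 10 include ties in E2f1 and Cdc45. The 2 libraries numbered 1 had the fewest genes with a count, and the part of this in the patterns was not tested.

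The medians of the phases were further apart without the libraries numbered 1. Without both, the G1/S median was −0.28, with 22 estimates below 0 and 5 above. The G2/M median was −0.69 over 20 tested members, with 14 below 0 and 6 above. Without wild type replicate 1 alone the medians were −0.31 and −0.39, and without IPMK cKO replicate 1 alone −0.31 and −0.53. In all 4 of these fits, the full one included, 15 of 27 G1/S members were below 0 and 3 above (Ccnd2, Ccnd3 and Lig1). For the 19 G2/M members tested in each fit these numbers were 11 and 4 (Bub1, Ube2c, Tubb5 and Smc4). Without both libraries 5 members had an unadjusted p under 0.05 by edgeR, all lower (Cdc45, Ccnb2, Bub1b, Cenpe and Mki67), and 0 had an adjusted p under 0.05. Of all 10913 genes in that fit 199 were lower and 118 higher at an unadjusted p under 0.05. Without overlap between the groups there were then 8 lower and 2 higher of 27 G1/S members and 5 lower and 1 higher of 19 G2/M members, beside 16.9% lower and 14.8% higher of all genes. The fits share libraries, so their values are no independent support for each other.

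Other libraries weighed as much on the G2/M members. The G2/M median was −0.99 without IPMK cKO replicate 3 and −0.15 without wild type replicate 3, while the G1/S median stayed between −0.42 and −0.28 over all single libraries left out. The difference between the phases was not tested.

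**Figure D4:**
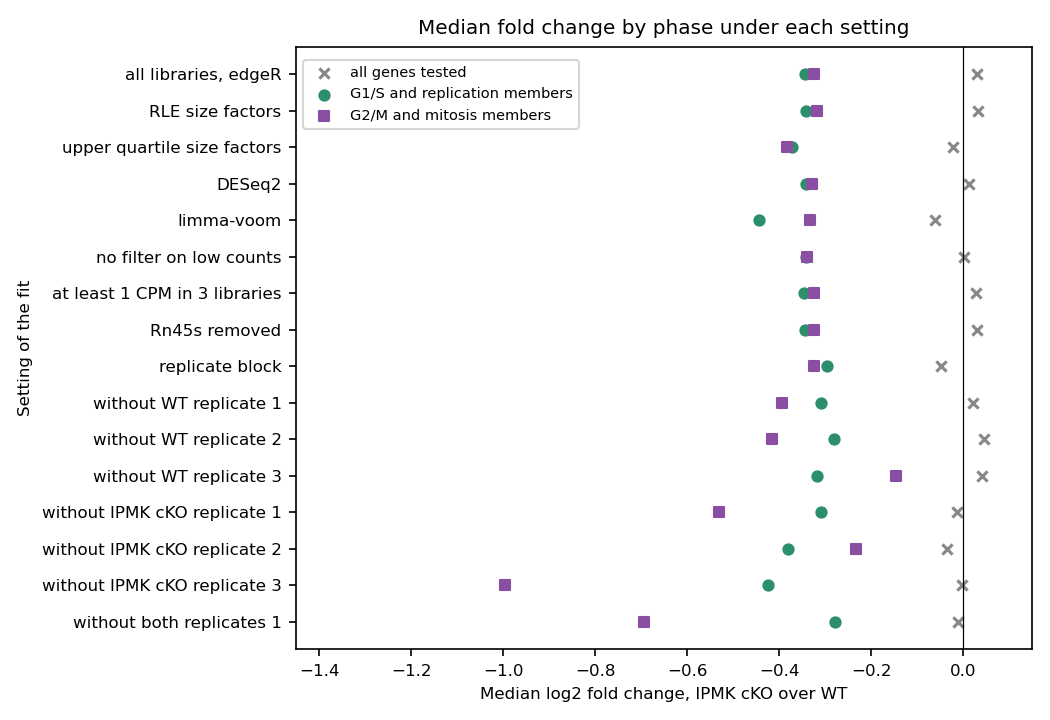
Median log2 fold change, IPMK cKO over wild type, of the tested G1/S members (circles), the tested G2/M members (squares) and all genes tested (crosses) under each setting of the fit. Both phases lie left of all genes in each setting shown; the G2/M median moves from −0.99 to −0.15 as single libraries are left out.

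The summed counts of each phase gave another picture, since single genes dominate them. G1/S members held 0.291%, 0.286% and 0.292% of the counts outside Rn45s (wild type) against 0.338%, 0.277% and 0.321% (IPMK cKO), or 0.290% ± 0.00362 against 0.312% ± 0.0317 (mean and SD, n = 3 each), a ratio of 1.08. Ccnd2 alone was 44.2% to 59.9% of these counts. Without it the shares were 0.162%, 0.136% and 0.144% against 0.146%, 0.111% and 0.146%, 0.912 times wild type. The groups overlapped with and without Ccnd2. G2/M members held 0.337%, 0.403% and 0.378% (wild type) against 0.334%, 0.512% and 0.375% (IPMK cKO), or 0.373% ± 0.0335 against 0.407% ± 0.0930, a ratio of 1.09 that was 0.951 without IPMK cKO replicate 2. Smc4 was 65.4% to 83.3% of these, and without it the shares were 0.0922%, 0.102% and 0.131% against 0.0929%, 0.0855% and 0.104%, 0.871 times wild type. Here too the groups overlapped.

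**Figure D5:**
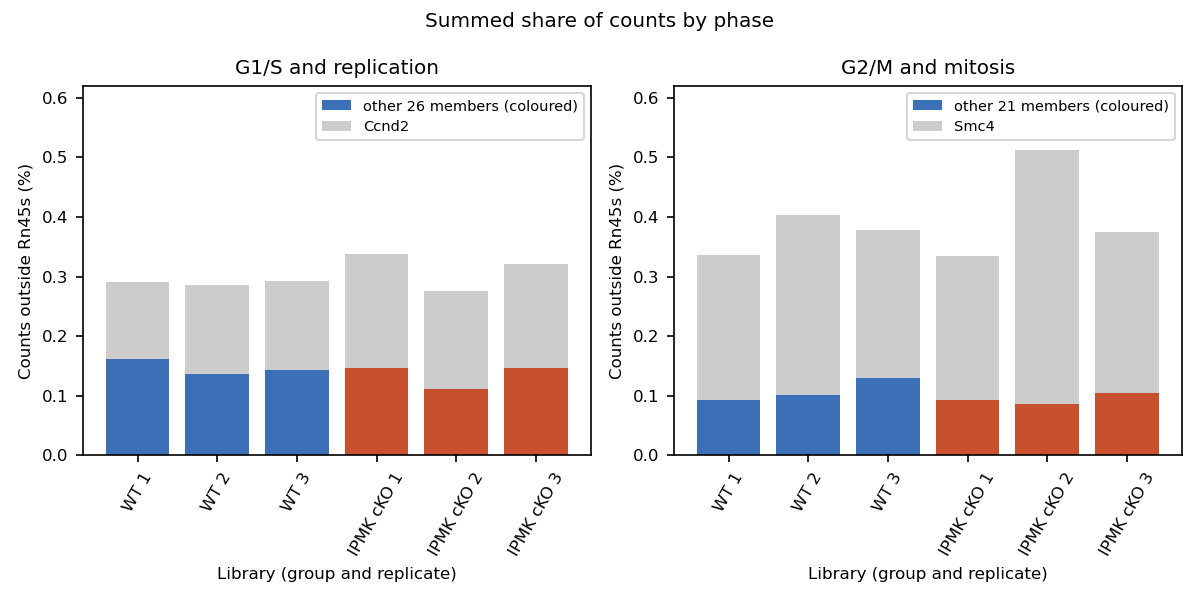
Summed counts of the G1/S members (left) and the G2/M members (right) as a percent of the counts outside Rn45s in each library, with the most abundant member, Ccnd2 or Smc4, in grey and the rest in blue (wild type) or orange (IPMK cKO). The grey part makes up between 44.2% and 83.3% of each bar, and the coloured parts overlap between the groups.

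Other genes of the pathway were read from lists of replication genes, mitosis genes and cycle regulators. Of the 49 tested replication genes 23 had estimates above 0 and 26 below (median −0.04), and 0 passed the test in either direction. The polymerase delta subunit Pold2 was at 27.8, 19.5 and 24.2 CPM (wild type) against 3.80, 8.10 and 8.42 CPM (IPMK cKO; −1.81, SE 0.75). Casp8ap2, which is needed for histone gene expression, and Rpa1, which coats single-stranded DNA, were higher in every IPMK cKO library (+0.80, SE 0.36 and +0.73, SE 0.37).

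Of the 51 tested mitosis genes 18 had estimates above 0 and 33 below (median −0.36), and 0 passed. The chromosome motor Kif22 was at 6.50, 9.02 and 10.5 CPM (wild type) against 0.141, 0 and 0 CPM (IPMK cKO). Racgap1, needed for cytokinesis, was at 21.5, 17.5 and 22.4 CPM against 5.63, 3.27 and 1.62 CPM (−2.54, SE 0.93). The microtubule depolymerase Kif2c was at 7.22, 1.37 and 3.12 CPM (wild type) and had no count in any IPMK cKO library, whereas the motor Kif20b was at 17.2, 36.5 and 25.2 CPM against 78.4, 56.6 and 59.4 CPM (+1.30, SE 0.44). None of these genes overlapped between the groups, but they were picked for the smallest p of the list, a choice that favours this. In all, 7 of the 51 were lower without overlap and 4 higher, beside 5.66% and 4.74% of all genes. The 7 include Kif22 and Kif2c, which passed the filter on low counts through wild type alone, so these counts are descriptions.

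A list of inhibitors and other regulators of the cycle had estimates on both sides of 0. It holds kinase inhibitors, pocket proteins and repressor E2F genes, but also E2f3, an activating E2F, and MuvB core genes, which serve repression and activation. Of 27 tested genes 9 had estimates above 0 and 18 below (median −0.22), and 0 passed. The kinase inhibitor Cdkn2d was at 121, 45.9 and 72.1 CPM (wild type) against 34.3, 45.5 and 43.9 CPM (IPMK cKO; −0.95, SE 0.43). Rbl2, the pocket protein of quiescent cells, was at 202, 240.2 and 252 CPM against 114, 207 and 83.4 CPM (−0.78, SE 0.36). The retinoblastoma gene Rb1 was at 28.9, 33.5 and 8.63 CPM against 41.5, 62.1 and 43.3 CPM (+1.05, SE 0.56). Ccng2, a cyclin of resting cells, was at 62.2, 38.5 and 57.8 CPM against 0.985, 43.1 and 14.1 CPM, with IPMK cKO replicate 1 again the lowest library.

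Markers of other spleen cells were sparse. The 9 erythroid markers summed to 1, 442 and 34 counts (wild type) against 0, 148 and 78 counts (IPMK cKO), with Klf1 and Car1 at 0 in every library. The 6 B cell markers summed to 50 to 132 counts in wild type and 58 to 100 in IPMK cKO. Most were of Cd79b (118, 35 and 126 against 1, 100 and 70 counts) except in IPMK cKO replicate 1, where 57 were of Cd79a, and Pax5 was at 0 in every library. The 4 plasma cell markers summed to 0 to 50 and 0 to 17 counts, the 6 macrophage and monocyte markers to 5 to 57 and 0 to 140, and the 5 neutrophil markers to 0 to 20 and 0 to 1. The 6 markers of CD8 T cells and NK cells, some of which Treg also make, summed to 264 to 315 and 261 to 543 counts, with Cd8a and Ncr1 at 0 in every library. Within that list Eomes, a transcription factor of cytotoxic T cells and NK cells, had 0, 14 and 37 counts (wild type) against 160, 90 and 148 counts (IPMK cKO; +3.08, SE 1.47, edgeR unadjusted p = 0.0608, adjusted p = 0.9999), without overlap. Nkg7 had 133, 208 and 183 against 368, 105 and 148 counts, and Cd8b1 had 65, 89 and 95 against 15, 66 and 58 counts. The part of these cells in the results was not tested.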

How the data were processed

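RNA of the 6 Treg samples was read as 3′ end tags (Lexogen QuantSeq), per the labels' protocols. What the authors deposited is a table of raw whole-number counts per symbol and library. Bowtie2, edgeR, mm10 and hg19 appear without roles or versions, per the submitters' processing notes. Counting program, annotation and strand setting: not given in the sources used here. Overlapping or antisense genes and near-identical copies are therefore uncertain.

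Libraries were grouped by their labels, with 3 in each group. The test was the quasi-likelihood test of edgeR 4.0.16 (R 4.3.3) after TMM scaling and filterByExpr (minimum 10 counts), adjusted by Benjamini-Hochberg over 10475 genes with a threshold of 0.05. The SE is the estimate divided by the square root of F. Mean log2 levels used a prior count of 2. Exact permutation tests over libraries were two-sided. No molecular identifiers are mentioned, so reads may not be independent molecules and floors and intervals cover counting error only. Depth was 7464546 to 8980395 counts per library. Alternatives were DESeq2 1.42.0, limma 3.58.1 (voom), other scalings and filters, removal of Rn45s, a replicate block, and libraries left out. The limit of 20 CPM and the removal of Ccnd2 or Smc4 were chosen after seeing the data. The fit was tested on simulated counts. Gene positions are from the GENCODE annotation of mm10, and promoters from RefSeq.

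The members and lists were chosen with earlier results of these data known. A rule named the 10 most abundant tested members of each phase, the 4 with the smallest p, Mki67, members with no count in 1 group, and the 4 genes with the smallest p of each other list. The remaining members were named after their values were seen. Not every gene picked by this rule is reported here. Of the other lists 56 of 56 replication, 68 of 72 mitosis and 29 of 29 cycle regulator symbols were present, where some mitosis genes were listed under older and newer symbols.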

Additional observations from a re-analysis of the deposited data

How the results depend on the processing

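At an adjusted p under 0.05, DESeq2 called 1 gene higher and 3 lower of all genes, none of them a member, and edgeR called 0 to 1 lower gene as libraries were left out (1 without IPMK cKO replicate 1 and 1 without both replicates 1, otherwise 0). Without adjustment, p was under 0.05 for 143 higher and 125 lower genes by edgeR, 293 and 306 by DESeq2 and 164 and 256 by limma-voom. The medians of both phases stayed below 0 under every alternative run. That of the other replication genes, −0.04, turned to +0.05 with the replicate block and ranged from −0.11 to +0.18 with libraries left out. The G1/S share of counts, 1.08 times wild type, was 0.912 times without Ccnd2. Of 540 alternative estimates for 36 tested genes picked by the naming rule 15 had the other sign and 0 were called, and 28 genes kept 1 sign. Members outside the rule are not in these numbers. Over the full fit and the 3 fits without replicates 1, the sign changed in 9 of 27 G1/S and 4 of 19 G2/M members. With libraries left out, estimates ranged from −0.34 to 0.77 for Ccna2, −0.34 to 0.53 for E2f2, −0.83 to 0.29 for Mcm3, −1.31 to 0.045 for Mcm4, −0.98 to 0.063 for Mcm6, −0.062 to 0.84 for Mcm7, −0.59 to 0.39 for Smc2 and −0.71 to 0.17 for Stmn1. Beyond the libraries left out, the cause was not tested. With the replicate number as a block the medians were −0.30 (G1/S) and −0.32 (G2/M), with 94 higher and 121 lower genes at an unadjusted p under 0.05 and 0 called. Same-numbered libraries deviated together only weakly (r = 0.0454, 0.0877 and 0.0265), although each correlated best with its own number. The labels tie the numbers to nothing, and whether same-numbered libraries share a batch was not tested. At least 1 library had no count for 5 G1/S and 9 G2/M members, while wild type replicate 2, with the fewest counts outside Rn45s (5287300), had a count for every member.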
